A study of Homo sapiens with 8 samples.

Results

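The genes described here are 10 components and targets of the YAP/TEAD pathway: CTGF, CYR61, ANKRD1, AMOTL1, AMOTL2, LATS2, AJUBA, YAP1, WWTR1 and TEAD1. They were chosen by name, and all 10 were found among the 18388 listed genes and among the 10138 genes with enough reads to be tested. Total and newly synthesized RNA were measured by SLAM-Seq in U-2OS Tet-ON cells, a human osteosarcoma line that carries a tetracycline-regulated transactivator. The compared groups were siControl and siCGGBP1, each with 3 replicates, transfected with an siRNA pool at 50 nM for 72 h and labeled with 75 µM 4-thiouridine (4sU) for 60 min. All samples carry DMSO in their label. Single siControl libraries with 0 and 200 µM 4sU served as the unlabelled background and as a further dose. CGGBP1 is a protein that binds CGG triplet repeats, and the comparison asked how its depletion changes RNA levels and RNA synthesis.

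In the Hippo pathway, a kinase cascade that ends in LATS1 and LATS2 phosphorylates the coactivators YAP1 and TAZ, the product of WWTR1, and keeps them out of the nucleus. When the cascade is low, YAP1 and TAZ enter the nucleus and bind TEAD factors, which recognize a short DNA element, and transcription of targets such as CTGF, CYR61 and ANKRD1 follows. Several targets, among them LATS2, AMOTL2 and AJUBA, encode regulators that act back on the pathway. The pathway responds to cell density, matrix stiffness and the actin cytoskeleton, and in adherent mesenchymal and osteosarcoma cells it is known to be active.

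The promoters of CTGF and ANKRD1 are shown because these are classical target genes that carry repeated TEAD elements close to their start. In SLAM-Seq the newly made RNA of such genes is read through T-to-C conversions, which arise at incorporated 4sU after alkylation. The RefSeq promoter table (GRCh38.p14) had entries for 8 of the 10 genes, covering 250 bases before to 50 bases after the start. The 250 bases before the start of CTGF, at chr6:131951373-131951622 on the minus strand, and of ANKRD1, at chr10:90921088-90921337 on the minus strand, read as follows from 5′ to 3′, with the TEAD element GGAATG in capitals.
CTGF: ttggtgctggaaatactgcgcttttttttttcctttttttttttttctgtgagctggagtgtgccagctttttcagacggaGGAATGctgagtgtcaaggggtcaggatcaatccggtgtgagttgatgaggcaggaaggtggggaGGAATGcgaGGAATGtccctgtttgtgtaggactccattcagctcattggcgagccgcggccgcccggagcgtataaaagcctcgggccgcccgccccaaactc
ANKRD1: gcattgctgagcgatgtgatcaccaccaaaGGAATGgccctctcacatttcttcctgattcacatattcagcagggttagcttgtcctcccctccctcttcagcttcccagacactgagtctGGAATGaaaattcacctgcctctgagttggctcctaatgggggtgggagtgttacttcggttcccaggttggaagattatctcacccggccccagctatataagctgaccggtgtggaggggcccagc
GGAATG lay 169, 104 and 95 bases upstream of the CTGF start and 220 and 128 bases upstream of the ANKRD1 start. On either strand (GGAATG or CATTCC), 14.0% of all 35116 promoter windows held the element, 1.36% held at least 2 copies and 0.125% held at least 3. Single copies were found 162 bases upstream of YAP1, 59 bases upstream of one AJUBA start, 69 bases upstream of one AMOTL2 start and 10 bases into the LATS2 transcript. A tract of 3 CGG units, CGGCGGCGG, searched on both strands, was found in 1 window of these genes, against 6.21% of all windows. It lay 10 bases upstream of an AMOTL1 start inside the gene, as the window (94768106 to 94768405) falls within the gene span (94706431 to 94876748). A match of letters is a description of the window and not a bound site.

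The 6 compared libraries held 10127519 to 14221516 reads, and the libraries with 0 and 200 µM 4sU held 19011714 and 11341561. CGGBP1, the siRNA target, had 1241, 1078 and 889 normalized reads in siControl and 211, 116 and 359 in siCGGBP1. It was lower in 9 of 9 pairs of libraries (log2 fold change −2.22, SE 0.39, adjusted p = 0.0137, edgeR quasi-likelihood test with Benjamini-Hochberg adjustment). The mesenchymal and osteosarcoma markers VIM, COL1A1, SPARC and RUNX2 were detected in each of the 6 compared libraries. COL1A2 was not found by symbol among the listed genes. The summed level of the detected markers was 3487 to 4215 CPM in siControl and 5249 to 7182 CPM in siCGGBP1. The collagen gene COL1A1 and the matrix gene SPARC rose (log2 fold change 1.31 and 1.26, adjusted p = 0.00353 and 0.00672, edgeR). The part of this shift in the results below was not tested. Of the markers of other cell types, CDH1 and PECAM1 had no reads in the 6 compared libraries. There, CDH5 had 0 to 1, PTPRC had 0 to 8 and EPCAM had 46 to 184.5. The hepatocyte marker ALB was not found by symbol. Conversions per 100 covered T were 0.183 to 0.263 at 75 µM 4sU, 0.218 at 200 µM and 0.0638 without 4sU. Replicate 3 stood apart in both groups: the new-to-total RNA ratio was 0 for 57.2% and 59.2% of tested genes, against 22.5% to 31.9% in the other 4 libraries. The labels number the replicates without naming separate cultures or days, so p-values measure only the spread between these samples.

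ANKRD1 fell in total RNA, the 1 gene of the 10 past the adjusted threshold, though not when most single libraries were left out, while CTGF and CYR61, the other classical targets, did not differ beyond the replicate spread in total RNA. ANKRD1 encodes a muscle and stress-response ankyrin repeat protein and lies on chromosome 10 (90912096 to 90921087, minus strand, GRCh38). It had 12630, 11372 and 8296 normalized reads in siControl and 6006, 6627 and 5992 in siCGGBP1. All siCGGBP1 libraries lay below all siControl libraries. The difference was 1.73-fold (log2 fold change −0.79, SE 0.18, 95% interval −1.19 to −0.40) with an adjusted p = 0.0473 by edgeR's quasi-likelihood test with Benjamini-Hochberg adjustment. That call was near the threshold. Without 1 library at a time, the adjusted p (edgeR) was 0.165, 0.138 and 0.0253 with siControl replicate 1, 2 or 3 left out, and 0.173, 0.105 and 0.0915 with siCGGBP1 replicate 1, 2 or 3 left out. Without replicate 3 of both groups, a setting chosen after seeing the data, it was 0.00872, with a log2 fold change of −0.92 (edgeR). In a bulk lysate, fewer cells that express ANKRD1 and less of its RNA per cell cannot be told apart.

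ANKRD1 was the 1 gene of the 10 past an adjusted p of 0.05 on the lower side, where 1.21% of all tested genes fell (edgeR quasi-likelihood test). On the higher side there were 0 of 10, against 0.543% of all tested genes. None of the 10 also passed an absolute log2 fold change of 1, against 1.4% of all tested genes in either direction. At an unadjusted p under 0.05, 3 of the 10 passed by edgeR and by DESeq2 (ANKRD1, LATS2 and AJUBA), against 16.4% and 17.9% of all tested genes. After adjustment DESeq2 left 2, ANKRD1 and LATS2, against 6.11% of all tested genes. The median log2 fold change over the 10 genes was −0.05, with 4 above 0 and 6 below, beside −0.00 over all tested genes.

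**Figure D1:**
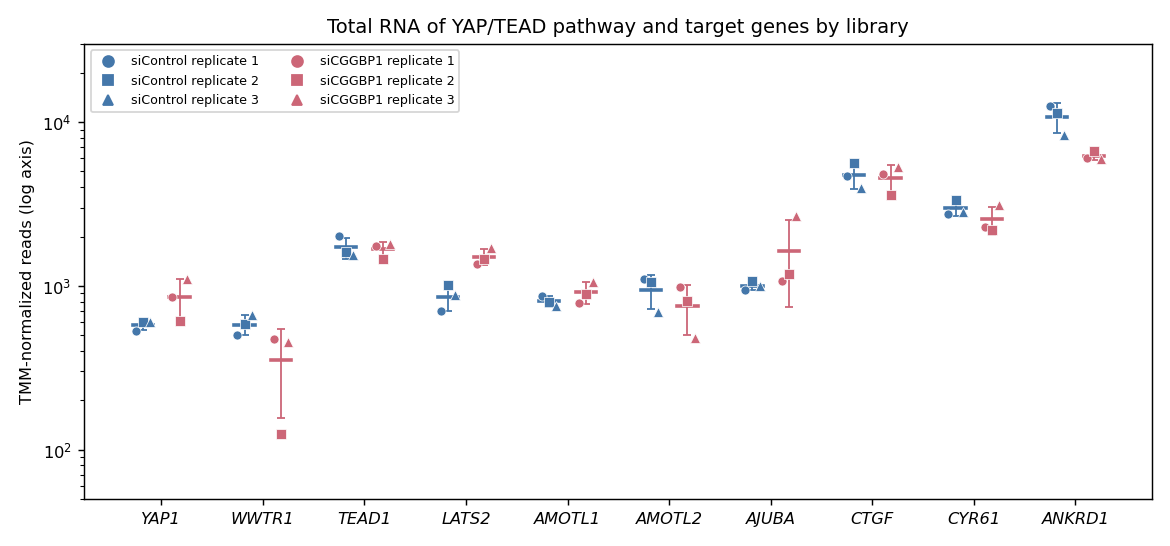
TMM-normalized reads of total RNA (log axis) for each gene and library. Blue symbols are the 3 siControl and red symbols the 3 siCGGBP1 libraries, with a symbol shape per replicate, thick lines for the group means and whiskers for the SD. The groups did not overlap for ANKRD1 and WWTR1 (lower in siCGGBP1) and for LATS2 and YAP1 (higher).

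CTGF (CCN2) and CYR61 (CCN1) encode secreted matricellular proteins that act on adhesion and matrix production. CTGF, on chromosome 6 (131948176 to 131951372), had 4704, 5658 and 3958 normalized reads in siControl and 4834, 3566 and 5320 in siCGGBP1. The groups overlapped, with the highest value in siControl replicate 2 and the lowest in siCGGBP1 replicate 2 (log2 fold change −0.06, 95% interval −0.51 to 0.38, adjusted p = 0.921, edgeR). CYR61, on chromosome 1 (85580761 to 85584589), had 2753, 3337 and 2834 normalized reads in siControl and 2301, 2208 and 3127 in siCGGBP1. Its groups overlapped through siCGGBP1 replicate 3 (log2 fold change −0.22, 95% interval −0.66 to 0.21, adjusted p = 0.639, edgeR). The intervals of both genes leave room for a fall of less than 1 on the log2 scale and for a small rise.

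Of the transcriptional components, YAP1 and WWTR1 had non-overlapping groups in opposite directions and TEAD1 lay close to 0, with none past the adjusted threshold. YAP1, the coactivator, on chromosome 11 (102110447 to 102233424), had 533, 598 and 604 normalized reads in siControl and 861, 611 and 1106 in siCGGBP1. Its siCGGBP1 replicate 2 lay just above the highest siControl library. The log2 fold change was 0.57 (95% interval −0.05 to 1.19, adjusted p = 0.347, edgeR), and 0.35 without siCGGBP1 replicate 3. WWTR1, which encodes the YAP1 paralog TAZ and lies on chromosome 3 (149517235 to 149736714), had 499, 583 and 660 normalized reads in siControl and 474, 125 and 457 in siCGGBP1. The low value of siCGGBP1 replicate 2 carried most of the difference, which was −0.72 on the log2 scale (95% interval −1.67 to 0.23, adjusted p = 0.455, edgeR) and −0.32 without that library. TEAD1, a DNA-binding partner of both on chromosome 11 (12674421 to 12944737), had 2009, 1604 and 1534 normalized reads in siControl and 1750, 1463 and 1799 in siCGGBP1. These values overlapped throughout (log2 fold change −0.04, 95% interval −0.49 to 0.42, adjusted p = 0.954, edgeR).

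LATS2, the kinase that restrains YAP1 and TAZ and is itself a YAP/TEAD target, had the lowest adjusted p of the genes on the higher side. It lies on chromosome 13 (20973036 to 21061586) and had 698, 1010 and 874 normalized reads in siControl and 1369, 1453 and 1699 in siCGGBP1. Every siCGGBP1 library exceeded every siControl library. The difference of 1.75-fold (log2 fold change 0.81, SE 0.24, 95% interval 0.30 to 1.32) had an adjusted p = 0.106 by edgeR and 0.0298 by the DESeq2 Wald test. Without replicate 3 of both groups, a setting chosen after seeing the data, its log2 fold change was 0.73 (adjusted p = 0.116, edgeR). AJUBA, a LIM protein that binds and inhibits LATS kinases, on chromosome 14 (22971177 to 22982551), had 940, 1069 and 1000 normalized reads in siControl and 1064, 1183 and 2657 in siCGGBP1. Its log2 fold change of 0.71 (95% interval 0.01 to 1.40, adjusted p = 0.299, edgeR) rested on siCGGBP1 replicate 3, without which it was 0.17. Over the 10 genes, 2 had non-overlapping groups on the higher side, against 12.0% of all tested genes, and 2 on the lower side, against 12.3%.

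The angiomotin family members AMOTL1 and AMOTL2, junction proteins that hold YAP1 in the cytoplasm, did not differ beyond the replicate spread. AMOTL1, on chromosome 11 (94706431 to 94876748), had 867, 793 and 753 normalized reads in siControl and 788, 896 and 1060 in siCGGBP1 (log2 fold change 0.19, 95% interval −0.35 to 0.72, adjusted p = 0.774, edgeR). AMOTL2, on chromosome 3 (134355347 to 134375479), had 1099, 1055 and 688 in siControl and 981, 810 and 482 in siCGGBP1 (log2 fold change −0.32, 95% interval −1.0 to 0.35, adjusted p = 0.666, edgeR). Both pairs of groups overlapped, and AMOTL2 was lowest in replicate 3 of each group.

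**Figure D2:**
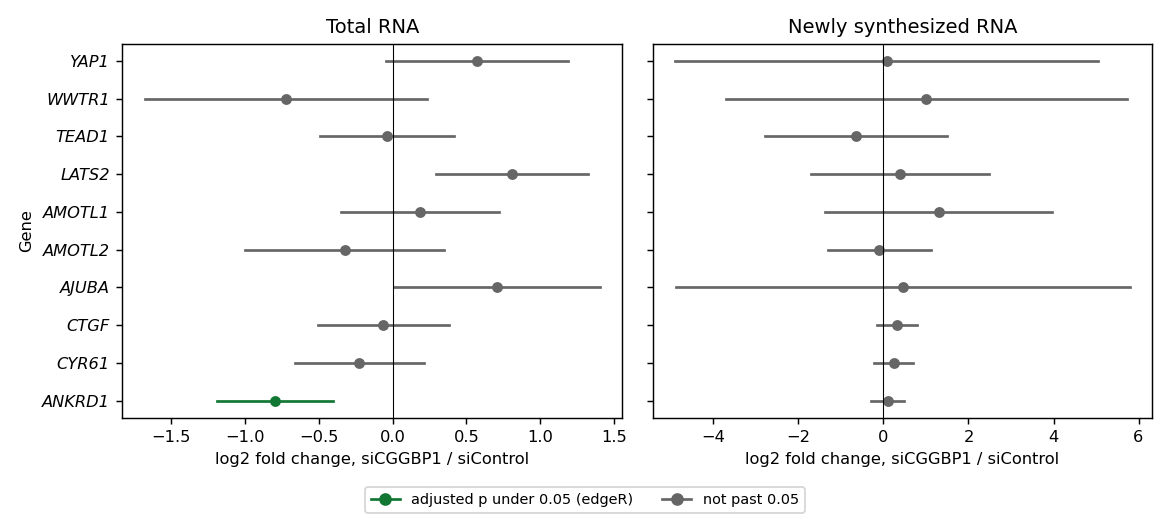
Log2 fold changes between siCGGBP1 and siControl with 95% intervals from edgeR for total RNA (left) and newly synthesized RNA (right), on separate axes. ANKRD1 total RNA (−0.79) is the only estimate with an adjusted p under 0.05, and the intervals for newly synthesized RNA are widest for AJUBA, YAP1 and WWTR1.

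Newly synthesized RNA, taken as reads multiplied by the new-to-total ratio, did not show a change of ANKRD1 beyond the replicate spread. Normalized new reads of ANKRD1 were 2892, 2918 and 1781 for siControl, and 3073, 2495 and 2550 for siCGGBP1. The groups overlapped, and the siControl values spread more widely than those of siCGGBP1 (log2 fold change 0.10, 95% interval −0.29 to 0.48, adjusted p = 1.0, edgeR). New CTGF RNA stood at 1458, 1932 and 1624 in the siControl libraries and at 1734, 1364 and 3143 in the siCGGBP1 libraries. CYR61 had 1715, 2090 and 1732 in siControl and 1562, 1864 and 3127 in siCGGBP1. The highest library of each gene was siCGGBP1 replicate 3, and the other 5 overlapped. Their log2 fold changes of 0.32 (95% interval −0.16 to 0.79) and 0.24 (95% interval −0.21 to 0.70) turned to −0.10 and −0.10 without that library.

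TEAD1 was the 1 gene of the 10 whose normalized new reads did not overlap, against 7.38% of all tested genes. It had 155, 171 and 243 in siControl and 136, 101 and 129 in siCGGBP1. The log2 fold change was −0.64 with a wide interval of −2.78 to 1.49 (edgeR). AMOTL2 had 514, 354 and 405 for siControl and 518, 312 and 358 for siCGGBP1, an overlap throughout. LATS2 had 58.0, 209 and 151 in siControl and 181, 149 and 216 in siCGGBP1, again overlapping, with the lowest value in siControl replicate 1. The new RNA of AMOTL1, AJUBA, YAP1 and WWTR1 was low, at most 339 normalized new reads in any library, with at least 1 library at 0 for each. None of the 10 genes was called in newly synthesized RNA by edgeR, against 0.0493% of all tested genes. At an unadjusted p under 0.05 there were also 0 by edgeR, DESeq2 and limma, against 3.15%, 4.32% and 4.4% of all tested genes. When conversions were tested in place of new reads there was 1, AMOTL1, against 5.71%, with 0 after adjustment. The median log2 fold change was 0.28 over the 10 genes, with 8 above 0 and 2 below, and −0.03 over all tested genes, of which 44.7% lay above 0. Without siCGGBP1 replicate 3 the split of the 10 genes was 6 above and 4 below.

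The new-to-total ratio estimates the share of a gene's RNA made during the 60 min pulse. By this measure the classical targets ranked high among tested genes in siControl. For ANKRD1 and CTGF this rank carries a limit, since both had conversions in the unlabelled library. ANKRD1 had 0.50 per 100 covered T there, against 0.640 to 0.903 in siControl. CTGF had 0.160, against 1.045 to 1.31. The part of this background in their ratios was not tested. In siControl the mean ratio was 62.0% for CYR61, 46.4% for AMOTL2, 35.4% for CTGF and 23.3% for ANKRD1. These values stood at percentiles 99.8, 99.1, 97.7 and 93.7 of all tested genes. LATS2 followed at 15.4% and TEAD1 at 11.4%, percentiles 86.8 and 78.9, with AMOTL1, YAP1, WWTR1 and AJUBA at 8.13%, 5.38%, 4.99% and 2.13%. Neighbours in this order differ little against their spread, since AMOTL2 ranged from 33.5% to 58.8% and CTGF from 31.0% to 41.0% in siControl, and only CYR61 lay above all siControl values of the other 9 genes. If levels were at steady state, the median siControl ratios at 75 µM correspond to the following apparent half-lives. In min, they were 42.6 for CYR61, 66.0 for AMOTL2, 99.5 for CTGF, 160 for ANKRD1, 219 for LATS2 and 368 for TEAD1. Across the siControl replicates they ranged from 46.8 to 102 min for AMOTL2 and from 179 to 479 min for LATS2. At 200 µM, the single siControl library had ratios of 83.9% for CYR61, 92.5% for AMOTL2, 54.9% for CTGF and 73.1% for ANKRD1. Its ratios were 32.6% for LATS2 and 0 for TEAD1. The half-lives therefore describe the 75 µM libraries only. Steady state was not tested.

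At 75 µM, the ratios of ANKRD1 and CYR61 were higher in every siCGGBP1 library than in every siControl library. The single siControl library at 200 µM had 73.1% for ANKRD1, above all siCGGBP1 values, and 83.9% for CYR61, within the siCGGBP1 range. ANKRD1 ratios were 22.9%, 25.7% and 21.5% in siControl and 51.2%, 37.6% and 42.6% in siCGGBP1. The highest 95% credible limit in siControl was 26.7% and the lowest 5% limit in siCGGBP1 was 36.2%. The means were 23.3% ± 2.13 and 43.8% ± 6.84 (SD, n = 3 each), a difference of 20.5 percentage points, with an exact permutation p = 0.1 (two-sided), the smallest that 3 against 3 allows. CYR61 ratios were 62.3%, 62.6% and 61.1% in siControl and 67.9%, 84.4% and 100% in siCGGBP1. The siControl values lay within 2 percentage points of each other, whereas siCGGBP1 spread widely, to a ratio at its upper bound in replicate 3. The means were 62.0% ± 0.794 and 84.1% ± 16.1 (SD, n = 3 each), a difference of 22.1 percentage points (exact permutation p = 0.1, two-sided). Adjusted over the 10 genes by Benjamini-Hochberg, both exact p-values became 0.5, so neither passed. These were 2 of 10 genes with non-overlapping ratios on the higher side, against 2.85% of all tested genes, and 0 on the lower side, against 4.22%. Many tested genes have a ratio of 0 in some library, and among the 1948 genes with a ratio above 0 in all 6 libraries the share on the higher side was 5.9%.

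**Figure D3:**
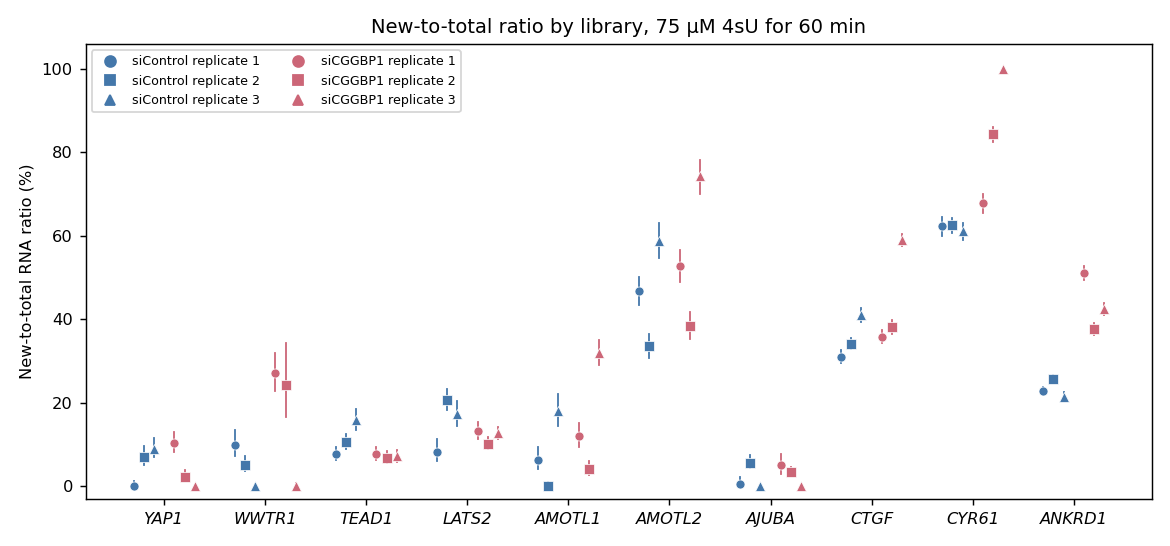
New-to-total RNA ratio (%) for each gene and library at 75 µM 4sU. Symbols are the maximum a posteriori values and vertical lines the 5% to 95% credible limits. All siCGGBP1 libraries lie above all siControl libraries for ANKRD1 and CYR61, and several genes with few new reads are at 0 in replicate 3.

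The other ratios overlapped between the groups when replicate numbers were left aside. CTGF ratios were 31.0%, 34.1% and 41.0% in siControl and 35.9%, 38.2% and 59.1% in siCGGBP1 (exact permutation p = 0.4, two-sided). AMOTL2 ratios were 46.8%, 33.5% and 58.8% in siControl and 52.9%, 38.5% and 74.3% in siCGGBP1 (exact permutation p = 0.6, two-sided). For both genes replicate 3 was the highest library in each group. TEAD1 ratios were 7.73%, 10.7% and 15.8% in siControl and 7.76%, 6.87% and 7.17% in siCGGBP1 (exact permutation p = 0.2, two-sided). LATS2 ratios were 8.31%, 20.7% and 17.3% in siControl and 13.2%, 10.2% and 12.7% in siCGGBP1, within the siControl range. In siCGGBP1 replicate 3 the ratios of AJUBA, YAP1 and WWTR1 were 0, while those of CTGF, CYR61, AMOTL1 and AMOTL2 were the highest of the 6 libraries. The part of library quality in these values was not tested. At each replicate number, the ratios of CTGF, AMOTL1 and AMOTL2 were higher in siCGGBP1 than in siControl, as were those of ANKRD1 and CYR61. WWTR1 was higher except at replicate 3, where it was 0 in both groups. LATS2, AJUBA, YAP1 and TEAD1 went both ways. The permutation tests ignored the replicate numbers, and the order within them was not tested.

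Pre-existing RNA was estimated as the difference between total and new reads. It follows from the total level and the ratio given above and is no separate measurement, and it was computed after the ratios had been seen. Pre-existing ANKRD1 RNA was 9737, 8454 and 6515 normalized reads in siControl and 2933, 4132 and 3442 in siCGGBP1. The groups did not overlap, and the mean was 2.35-fold lower in siCGGBP1, a direction that the lower total and the higher ratio already set. Pre-existing CYR61 RNA was 1038, 1247 and 1102 in siControl and 740, 344 and 0 in siCGGBP1, 3.13-fold lower by the means, with the 0 set by the ratio of 100% in replicate 3. Without that library the difference was 2.08-fold. Pre-existing LATS2 RNA was 640, 801 and 723 in siControl and 1188, 1304 and 1484 in siCGGBP1, higher in every library. AJUBA and YAP1 also had non-overlapping groups on the higher side, while CTGF, AMOTL1, AMOTL2, WWTR1 and TEAD1 overlapped. The 3 genes on the higher side stand beside 11.9% of all tested genes, and the 2 on the lower side beside 12.4%.

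**Figure D4:**
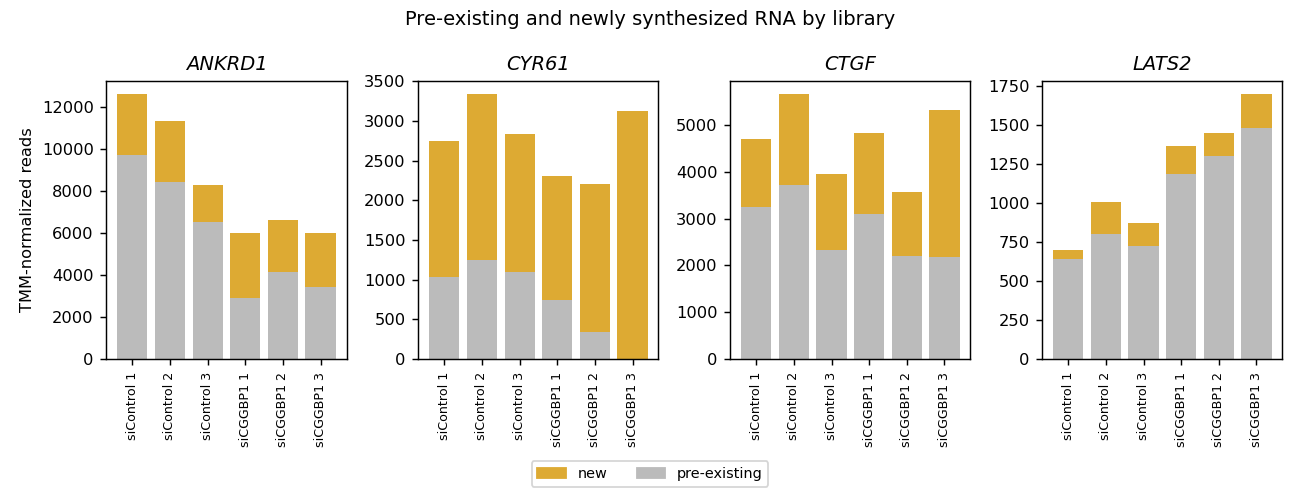
TMM-normalized reads of each library split into newly synthesized (yellow) and pre-existing (gray) RNA for ANKRD1, CYR61, CTGF and LATS2, each on its own axis. The new part of ANKRD1 overlaps between groups while its pre-existing part is lower in all 3 siCGGBP1 libraries.

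The conversions behind these ratios were read against the unlabelled library. ANKRD1 had 0.835, 0.903 and 0.640 conversions per 100 covered T in siControl and 2.04, 1.56 and 1.58 in siCGGBP1. Without 4sU it already had 0.501 (Wilson 95% interval 0.484 to 0.520, counting error only), and CTGF had 0.160, whereas the other 8 genes had 0.00351 to 0.0153. The part of this background in the ANKRD1 ratio was not tested. Reads with at least 2 conversions were 3.55%, 4.02% and 3.51% of ANKRD1 reads in siControl and 13.4%, 8.05% and 10.3% in siCGGBP1, and 0.0615% without 4sU. The siCGGBP1 libraries lay above all siControl libraries. For CYR61 they were 29.2%, 27.8% and 28.3% in siControl and 29.9%, 41.8% and 51.4% in siCGGBP1, and 0.0723% without 4sU. For CTGF they were 10.1%, 10.2% and 13.9% in siControl and 13.0%, 14.4% and 20.4% in siCGGBP1, with none in the unlabelled library.

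The rest of the pathway was read through 5 gene lists that leave out the 10 genes above. Of the 15 Hippo kinase and upstream genes, none passed an adjusted p of 0.05 by edgeR, with 11 above 0, 4 below and a median log2 fold change of 0.13. Of all tested genes, 0.543% passed on the higher side and 1.21% on the lower side, and 49.8% lay above 0. NF2, the tumor suppressor merlin, had 1255, 1447 and 1784 normalized reads in siControl and 2049, 2995 and 2505 in siCGGBP1 (log2 fold change 0.75, adjusted p = 0.110, edgeR). FRMD6 and LATS1 had log2 fold changes of 0.80 and 0.90, with adjusted p-values of 0.190 and 0.319 (edgeR). The groups did not overlap for these 3, among 4 of the 15 genes on the higher side and 0 on the lower side, against 12.0% and 12.3% of all tested genes.

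Among the 10 scaffolds and LATS or YAP binding proteins, WTIP rose. It was the only gene of that list past the threshold, against 0.543% of all tested genes on the higher side. WTIP, an Ajuba family LIM protein, had 331, 455 and 292 normalized reads in siControl and 896, 1151 and 1064 in siCGGBP1 (log2 fold change 1.53, SE 0.28, adjusted p = 0.0184, edgeR). Over this list 5 genes lay above 0 and 5 below, with a median of −0.01. Groups did not overlap for 2 of the 10 genes on each side, against 12.0% (higher) and 12.3% (lower) of all tested genes. The 14-3-3 protein gene YWHAZ lay at −0.34 on the log2 scale (adjusted p = 0.361, edgeR). Of the 8 TEAD factors and cofactors, none passed by edgeR, 7 lay above 0 and 1 below, and the median was 0.59. Over all tested genes 49.8% lay above 0. Groups did not overlap for 4 of the 8 on the higher side and 1 on the lower side, against 12.0% and 12.3% of all tested genes. VGLL4, a cofactor that competes with YAP1 for TEAD, had 309, 271 and 214 normalized reads in siControl and 609, 618 and 690 in siCGGBP1 (log2 fold change 1.27, SE 0.31, adjusted p = 0.0634, edgeR). The AP-1 subunits FOSL1 and JUN, which occupy enhancers together with TEAD factors, had log2 fold changes of −1.15 and 0.66 (adjusted p = 0.151 for each, edgeR).

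Of 17 further YAP/TAZ signature genes, 12 were tested and none passed an adjusted p of 0.05 by edgeR. Of the 12, 7 lay above 0 and 5 below, with a median of 0.04. Groups did not overlap for 1 of the 12 on each side, against 12.0% (higher) and 12.3% (lower) of all tested genes. The lowest adjusted p-values were those of CCDC80 (log2 fold change −0.70, adjusted p = 0.190), RBMS3 (1.08, 0.249) and GADD45A (0.42, 0.459) by edgeR. The 11 targets of SRF and MRTF, actin-regulated factors that share targets with YAP/TEAD, held 3 genes past the adjusted threshold (edgeR), 1 higher and 2 lower, against 0.543% and 1.21% of all tested genes. ACTA2, smooth muscle actin, rose from 77.3, 137 and 105 normalized reads in siControl to 720, 647 and 472 in siCGGBP1 (log2 fold change 2.52, adjusted p = 0.00776, edgeR). ACTG1, cytoplasmic gamma actin, fell from 33132, 31434 and 32334 to 12641, 13232 and 14054 (log2 fold change −1.28, adjusted p = 0.000696, edgeR). ACTB, beta actin, fell by 0.69 on the log2 scale (adjusted p = 0.0403, edgeR). The actin genes thus moved in both directions. Over the whole list, 6 of the 11 genes lay above 0 and 5 below, with a median of 0.31. Groups did not overlap for 4 of the 11 on the higher side and 2 on the lower side, against 12.0% and 12.3% of all tested genes. ACTA2, ACTG1 and ACTB are similar in coding sequence, and how reads that match several of them were assigned is not given in the sources used here. No listed gene was called in newly synthesized RNA.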

How the data were processed

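Total and newly synthesized RNA came from QuantSeq 3′ libraries of U-2OS Tet-ON cells. The authors removed ribosomal reads with Bowtie2 2.3.0, mapped to GRCh38 with STAR 2.5.3a and ran GRAND-SLAM, and they deposited expected counts per gene, namely reads, conversions, covered T bases and reads with at least 2 conversions, the last read here from its column name. The new-to-total ratio was deposited as a fraction (0 to 1) with credible limits and is printed here as a percent. No molecular identifiers were in the values, so copies of the same molecule could not be told apart. The credible limits and Wilson intervals cover counting error only, whereas the edgeR intervals include the spread between libraries.

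Read counts were rounded. The test took every gene that reached 100 reads in 3 or more of the 6 libraries. New RNA was reads multiplied by the maximum a posteriori ratio, rounded, on library sizes and TMM factors of total reads. A ratio missing for a gene was set to 0. For each, differences were tested by the quasi-likelihood method of edgeR 4.0.16 in R 4.3.3, with Benjamini-Hochberg adjustment across tested genes. Calls needed an adjusted p under 0.05 together with a log2 fold change beyond 1 in either direction. Scripts were tested on simulated data. Alternatives were DESeq2 1.42.0, limma 3.58.1, another normalization, filters, conversion counts, a replicate block and left-out libraries. Ratios were compared by exact permutation tests (scipy 1.17.1). Gene positions are from GENCODE.

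The 10 genes and the lists were chosen with earlier results of these data known. Named genes were the 10 genes, CGGBP1, called genes of the lists and the 3 genes of each list with the lowest adjusted p in total RNA. Of these, 1 gene is not reported here. Samples were grouped by the labels.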

Additional observations from a re-analysis of the deposited data

Results flagged for a closer look

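The siControl library with 200 µM 4sU did not enter the comparison of siCGGBP1 with siControl. In it, 7 of the 10 genes had conversions per 100 covered T above those of the library without 4sU, with separate Wilson 95% intervals (counting error only, 1 library per dose). The rates were 1.87 for CYR61, 1.69 for AMOTL2, 1.37 for CTGF, 1.31 for ANKRD1, 1.12 for LATS2, 0.284 for AMOTL1 and 0.127 for AJUBA. YAP1, WWTR1 and TEAD1, at 0.0141, 0.00456 and 0.0148, had intervals that overlapped those of the unlabelled library, although TEAD1 had 0.287 to 0.419 in the 6 libraries with 75 µM 4sU.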

How the results depend on the processing

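The count of genes called in total RNA, 142, was 371 by DESeq2, 327 without the read filter, 286 at an adjusted p under 0.1, 320 without replicate 3 of both groups (chosen after seeing the data), and 48 to 148 without 1 library at a time. Of the 10 genes, 1 passed the adjusted threshold, against 2 by DESeq2, 0 with edgeR's own filter, where ANKRD1 had an adjusted p of 0.0559, and 0 to 1 without 1 library. In newly synthesized RNA 5 genes were called, against 27 by DESeq2, 0 by limma, 3 with TMM factors of new reads, 18 on conversion counts, 10 without replicate 3 of both groups and 3 to 6 without 1 library. The log2 fold change of new YAP1 RNA turned to −0.32 by limma and −0.13 on conversion counts. Without replicate 3 of both groups the new RNA changes of CTGF, CYR61 and ANKRD1 turned to −0.12, −0.14 and −0.054. The causes were not tested.

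Libraries of the compared groups were correlated across genes after the group mean of each gene was subtracted from its log2 CPM. These deviations correlated at r = 0.109, 0.182 and 0.0886 between same-numbered libraries, and at −0.104 to −0.0244 between other pairs. The r values are not correlations of the levels themselves. Subtracting a group mean also ties the deviations of a group together, so positive r for some pairs pulls others below 0. The deviations of every sample correlated best with those of its own number. No label says what a number shares, so the numbers were not taken as pairs. With a replicate block, 160 genes were called in total RNA and 2 in newly synthesized RNA, ANKRD1 had an adjusted p of 0.041, and the change of new YAP1 RNA turned to −1.6.

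Without 1 library at a time, the log2 fold changes that changed sign were, in total RNA, those of CTGF (−0.18 to 0.085) and TEAD1 (−0.11 to 0.090), and in newly synthesized RNA those of CTGF (−0.10 to 0.54), CYR61 (−0.10 to 0.44), ANKRD1 (−0.10 to 0.21), AMOTL2 (−0.34 to 0.062), AJUBA (−0.20 to 3.12), YAP1 (−2.33 to 0.68) and WWTR1 (−0.78 to 1.85). None of these had passed the threshold. A fit that leaves 2 libraries in a group takes its spread from all 5. The spread limits newly synthesized RNA most, with a biological coefficient of variation of 1.78 against 0.399 in total RNA, and values are relative to the other RNA of a library, since no spike-in reads were used.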

Other observations

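In siCGGBP1 replicate 3, AMOTL1 had 2.71 conversions per 100 covered T, against 0.0725 to 0.507 in the other 5 libraries with 75 µM 4sU and 0.00351 without 4sU. AMOTL1 reads with at least 2 conversions were 18.7% of its reads in that library and 0% to 4.34% in the other 5.

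CYR61 levels (CPM) were 235, 291 and 236 in the siControl libraries with 75 µM 4sU, 509 in the single library without 4sU and 394 in the single library with 200 µM 4sU. ANKRD1 levels in the same order were 1077, 993 and 690, then 1068 and 854 CPM. Both single libraries thus lay above all 3 siControl libraries for CYR61 but not for ANKRD1. This was not particular to CYR61. YAP1 had 45.5, 52.2 and 50.2, then 77.6 and 67.9 CPM, and LATS2 had 59.6, 88.1 and 72.7, then 96.2 and 114 CPM. The other genes of the 10 did not show it, and the share over all tested genes was not computed.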
